A study of Mus musculus with 9 samples.

Results

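The genes described here are 48 heat shock proteins, chaperonins and helper genes, chosen by symbol from the 48820 genes of the expression table. They were not picked by a cut on their measured values, but earlier results of these data were known. They comprise 4 HSP90 genes, 11 HSP70 and HSP110 genes, 6 small heat shock proteins, the 2 mitochondrial chaperonin genes, 11 J-protein genes, 7 subunits of the cytosolic chaperonin TRiC, 3 protein disulfide isomerases and 4 regulators or cochaperones (*Hsf1*, *Hsf2*, *Bag3* and *Stip1*). The symbol Hspa14 stood on 2 rows of the table. *Hspa14* was therefore taken by its identifier (ENSMUSG00000109865.1), and the other row (ENSMUSG00000051396.15), which GENCODE M21 names *Gm45902* and which overlaps it on the same strand of chromosome 2, was kept apart.

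RNA was sequenced from the hearts of wild-type C57BL/6J mice at embryonic day 18.5 (E18.5d), on postnatal day 1 (P1d) and on postnatal day 7 (P7d), with 3 biological replicates per stage and no treatment at any stage. The labels call every heart male and do not say whether a sample was 1 heart or a pool, or whether littermates were used. Each sample is called a heart below. Levels are given as deposited in FPKM, the fragments of a gene divided by its length in kilobases and by the library's mapped fragments in units of 1e6, a measure that is corrected for gene length, so that levels of different genes can be set side by side. Stages were compared with limma on log2(FPKM + 1) over the 13618 genes whose mean reached 1 FPKM, a filter that all 48 genes passed. A gene is called higher or lower where its Benjamini-Hochberg adjusted p was under 0.05.

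Chaperones bind other proteins while these fold, are assembled, cross membranes or are unfolded by stress. HSP70 proteins take up short unfolded stretches in cycles of ATP binding that J-proteins start and nucleotide exchange factors such as HSP110 and BAG proteins end, HSP90 acts later on nearly folded clients such as kinases and hormone receptors, and the chaperonins enclose a whole protein in a barrel. Small heat shock proteins hold unfolded proteins without ATP and are abundant in heart muscle, where several of them and BAG3 act on the contractile apparatus.

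The fragments per heart, read from the steps between low FPKM values, came to 25.25 to 46.25 times 1e6. At that depth the least abundant member, *Hspa1b*, rested on about 82 to 260 fragments per heart. The FPKM columns summed to totals between 1347981 and 1794160. FPKM does not set such sums equal, and protein-coding nuclear genes made up 29.6% (P1d heart 2) to 37.3% (E18.5d heart 3) of them. The median gene changed by -0.06 on the log2 scale from E18.5d to P1d, by -0.17 from E18.5d to P7d and by -0.09 from P1d to P7d, and by 0.00, -0.02 and 0.00 after scaling by the median of ratios. The 5 hearts with *Xist* at or under 0.11 FPKM expressed Y-linked genes, whereas E18.5d hearts 1 and 3 and P7d hearts 2 and 3 had *Xist* at 58.0 to 97.03 FPKM and the 4 Y-linked genes examined at 0, against their labels. The cardiomyocyte markers summed to 19804 to 25832 FPKM in every heart and the 4 thymocyte markers to at most 0.27 FPKM. Airway markers summed to 0.05 to 222 FPKM, with *Scgb3a2* at 53.2, 127 and 179 FPKM in E18.5d hearts 1 and 2 and P1d heart 1. Markers of other cell types moved with the stages. Over all genes 18.4% were called higher at P1d and 12.5% at P7d than at E18.5d. Of 4 endothelial markers, 4 were higher at P7d than before birth (sums of 260.3 to 294.5 FPKM at E18.5d, 308 to 341 at P1d and 378 to 392 at P7d). Of 5 macrophage markers, 4 were higher at P1d (41.4 to 54.8, 65.2 to 88.1 and 61.8 to 69.3 FPKM). Of 4 brown adipocyte markers tested, 3 were higher at P1d and at P7d (10.6 to 11.4, 29.6 to 31.9 and 37.0 to 42.3 FPKM over 5 genes), with *Ucp1* at 0 in every E18.5d heart. The part of these cells in the results below was not tested. In RNA from whole hearts, fewer cells of a type and less RNA per cell cannot be told apart.

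A pair of DNA elements is known to control many of these genes, so the members' promoters are shown first. The heat shock element, bound by heat shock factors, is made of GAA units in alternating direction, so that 2 units read GAANNTTC or TTCNNGAA. The ER stress element, bound by factors of the unfolded protein response, has CCAAT and CCACG 9 bases apart. Both strands of the RefSeq promoter windows (GRCm38.p6, 250 bases before to 50 after each start site) were searched, and 40 of the 48 genes had at least 1 window. No window was used here for *Hsp90aa1*, *Hsp90ab1*, *Hspa8*, *Hspa9*, *Hspa13*, *Hspb2*, *Hsf1* and *Cct4*. A run of 3 heat shock units was found in 4 of 40 genes (10%), against 0.66% of all 27025 genes with a window. The shorter run of 2 units, which also lies inside every run of 3, was found in 16 of 40 genes (40.0%) against 16.97% of all genes. A match is a description of the letters and does not show that a factor binds there.

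The 4 genes with 3 or more heat shock units were *Hspd1* and *Hspe1*, which are transcribed away from each other, *Hsph1* and *Dnajb6*. They are shown because the first 3 are among the genes with large decreases below, while *Dnajb6* is one of the few called higher at P1d. Capitals mark the units and the bases between them.
Hspd1 (chr1:55088054-55088081, minus strand): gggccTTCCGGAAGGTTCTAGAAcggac
Hspe1 (chr1:55088054-55088081, plus strand): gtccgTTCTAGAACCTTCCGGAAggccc
Hsph1 (chr5:149636283-149636305, minus strand): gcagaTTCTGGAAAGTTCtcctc
Dnajb6 (chr5:29735847-29735869, plus strand): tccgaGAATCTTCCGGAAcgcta
The *Hspd1* and *Hspe1* entries are the same bases read from either strand, 127 bases before the start site of *Hspd1* at the nearest and 72 before that of *Hspe1*. The stretch of *Dnajb6* lies before the start site and that of *Hsph1* after it, in each of their windows. All 4 stretches also lie within exons annotated by GENCODE.

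Among the 12 genes with runs of 2 units only were the stress-inducible pair *Hspa1a* and *Hspa1b* and the heart-rich genes *Hspb1*, *Hspb6*, *Hspb8* and *Bag3*, which are shown because they are the inducible HSP70 genes and the small heat shock and cochaperone genes described below.
Hspa1a (chr17:34972248-34972265, minus strand): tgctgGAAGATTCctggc
Hspa1b (chr17:34959330-34959347, minus strand): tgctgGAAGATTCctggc
Hspb1 (chr5:135887797-135887814, plus strand): caagaGAAGTTTCcagat
Hspb6 (chr7:30553176-30553193, plus strand): ttattGAAGTTTCtaaat
Hspb8 (chr5:116422850-116422867, minus strand): caggaGAAGTTTCtaggc
Bag3 (chr7:128523620-128523632, plus strand): gaccaGAAGTTTC
The stretches of *Hspb8* and *Bag3* lie after the start site. *Hspa1a* and *Hspa1b* had the same bases here, and 247 of the 250 bases before their start sites were identical (98.8%). The same GAAGTTTC stood in *Hspb1* and *Cct2*, which had fallen by P7d from their E18.5d level, and in *Hspb6*, *Hspb8* and *Bag3*, which had risen.

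The ER stress element was found in 4 of 40 genes (10%), against 0.14% of all genes. All 4 encode proteins of the endoplasmic reticulum (ER), the compartment where secreted and membrane proteins fold.
Hspa5 (chr2:34772020-34772048, plus strand): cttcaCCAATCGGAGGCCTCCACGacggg
Hsp90b1 first (chr10:86705633-86705661, minus strand): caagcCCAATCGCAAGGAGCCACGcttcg
Hsp90b1 second (chr10:86705528-86705556, minus strand): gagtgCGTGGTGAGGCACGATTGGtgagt
Pdia6 (chr12:17266486-17266514, plus strand): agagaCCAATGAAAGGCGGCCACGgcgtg
Dnajc3 (chr14:118937822-118937850, plus strand): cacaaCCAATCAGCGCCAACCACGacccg
*Hsp90b1* carried the element in both directions. All 4 genes were called lower at P1d and at P7d than at E18.5d, *Dnajc3* at P7d under only 2 of 5 scalings. *Pdia3*, *Pdia4* and *Dnajb11*, ER genes with a window but without this element, were also called lower at both stages. *Dnajb9*, likewise without it, was called higher at P1d.

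Most of the 48 genes were lower after birth than before it. At P1d, 30 were lower and 2 higher than at E18.5d, with a median log2 change of -0.30 against -0.06 over all genes, of which 27.6% were called lower and 18.4% higher. At P7d, 34 were below and 3 above their E18.5d level, and the median was -0.49 against -0.17 over all genes, of which 36.9% were called lower and 12.5% higher. Between P1d and P7d the genes moved in both directions, with 11 higher and 18 lower at P7d, a median of -0.03 against -0.09 over all genes, and 15.5% of all genes called higher and 28.6% lower. The shares of members called lower in the comparisons with E18.5d thus stood well above these backgrounds, and those between P1d and P7d nearer to them. Scaled by the median of ratios, P7d stood above E18.5d in 7 genes and below it in 30, and above P1d in 16 and below it in 15, so that the balance in the last comparison depends on the scale. Equal column sums gave 10 higher and 6 lower there, equal sums over protein-coding nuclear genes 17 and 11, and quantile normalization 14 and 14. Measured against the median gene, the median member changed by -0.25, -0.32 and 0.07 in the same order of comparisons, and by -0.26 to -0.24, -0.32 to -0.28 and 0.07 to 0.08 over the 5 scalings tried. In the 5 hearts without *Xist*, of which 1 each was at E18.5d and P7d, 10 genes were called lower at P1d and 3 at P7d against E18.5d, and 0 were called between P7d and P1d. All P1d hearts were free of *Xist*, and with a term for *Xist* in the fit 11 calls of P7d against P1d were lost, those of *Bag3*, *Dnaja2*, *Dnaja4*, *Dnajb1*, *Hsp90b1*, *Hspa14*, *Hspa4*, *Hspb3*, *Pdia6*, *Stip1* and *Tcp1*, with adjusted p-values from 0.0514 for *Pdia6* to 0.172 for *Hspa14*. At P1d against E18.5d 5 were lost, and at P7d against E18.5d 0.

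Together the 48 genes made up 1.01% to 1.07% of the FPKM of protein-coding nuclear genes at E18.5d, 0.744% to 0.852% at P1d and 0.790% to 0.827% at P7d. The E18.5d hearts did not overlap with the others, whereas P1d and P7d overlapped. *Hspa8* and *Hsp90ab1* were the most and second most abundant at every stage. *Hspa8* alone took 19.8% to 22.3% and *Hsp90ab1* 12.3% to 14.1% of the members' summed FPKM in every heart, while *Hspa1a* and *Hspa1b* were the least abundant 2 at every stage.

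**Figure D1:**
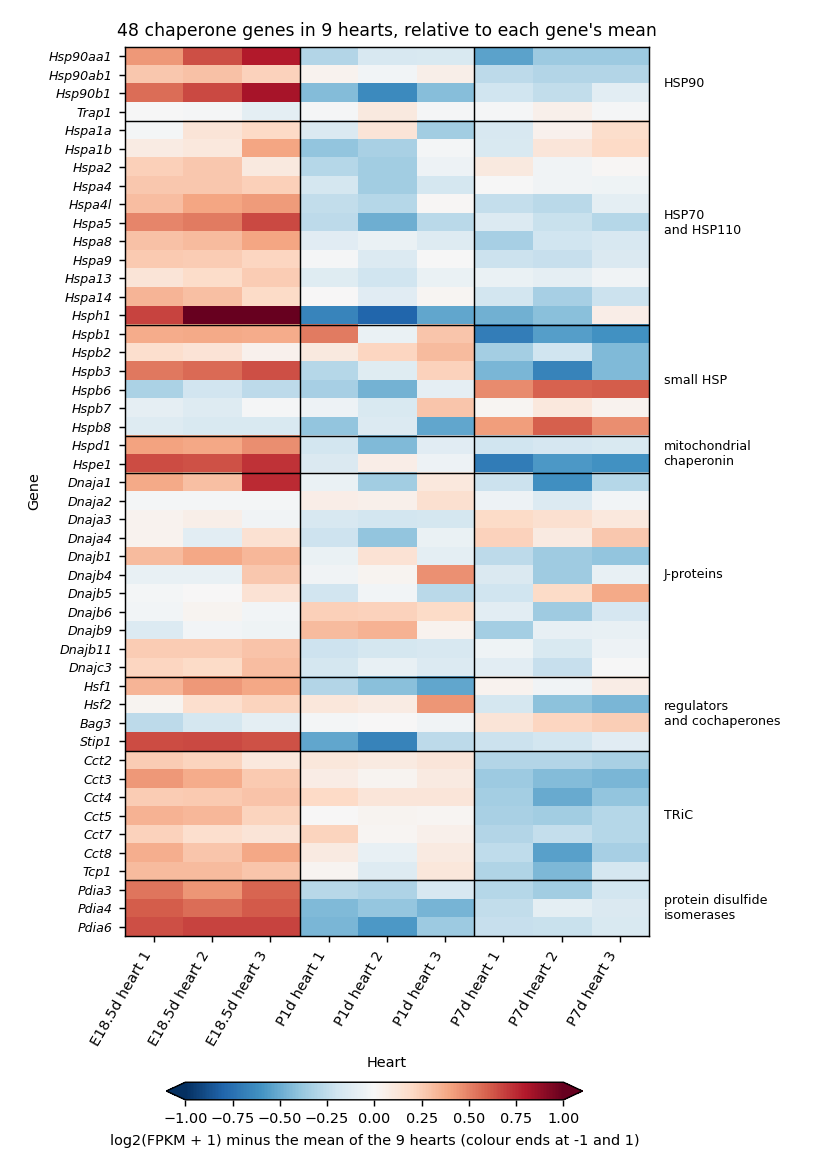
Heatmap of the 48 genes (rows, by class) in the 9 hearts (columns, by stage), with colour for log2(FPKM + 1) minus the gene's mean over the 9 hearts. Most rows are red in the 3 E18.5d hearts and blue later, whereas *Hspb6*, *Hspb8* and *Bag3* are blue in the 3 E18.5d hearts and red in the 3 P7d hearts.

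**Figure D2:**
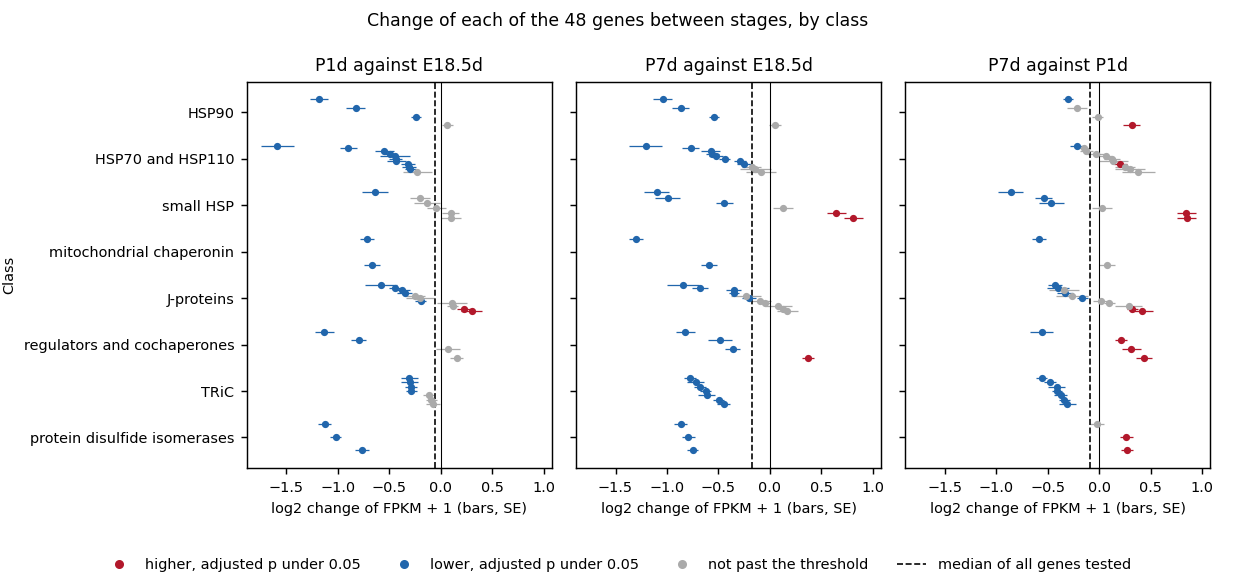
Log2 change of FPKM + 1 of each gene (points, with SE from limma) in the 3 comparisons, by class on the vertical axis, with red for called higher, blue for called lower, grey for not called and a dashed line at the median of all genes tested. All 7 TRiC genes lie left of the dashed line at P7d against either other stage, and the small heat shock proteins reach from -1.10 to 0.81 at P7d against E18.5d.

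The cytosolic HSP90 proteins are made from a stress-inducible gene, *Hsp90aa1*, and a constitutive one, *Hsp90ab1*. *Hsp90aa1* (chromosome 12, 110690605 to 110702728, minus strand) was at 72.3, 83.8 and 93.0 FPKM in the E18.5d hearts, at 43.2, 47.5 and 47.8 FPKM at P1d and at 36.5, 41.2 and 41.2 FPKM at P7d. The 3 stages did not overlap. The log2 change was -0.83 at P1d (SE 0.09, limma adjusted p = 0.000126) and -1.04 at P7d (SE 0.09, adjusted p = 2.95e-05) against E18.5d, and P7d against P1d did not pass (-0.22, adjusted p = 0.0884).

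*Hsp90ab1* (chromosome 17, 45567775 to 45573271, minus strand) was at 682, 693 and 665 FPKM at E18.5d, 581, 557 and 589.6 FPKM at P1d and 474, 462 and 462 FPKM at P7d. The hearts of the 3 stages again did not overlap, and the log2 changes were -0.24 at P1d and -0.54 at P7d against E18.5d and -0.30 at P7d against P1d (adjusted p = 0.00411, 3.7e-05 and 0.00129). The last of these passed under 2 of 5 scalings and lay between -0.30 and -0.05 over them. *Hsp90aa1* thus stood at 10.6% to 14.0% of the level of *Hsp90ab1* before birth, at 7.44% to 8.53% at P1d and at 7.71% to 8.92% at P7d. The log2 ratio of the pair, which does not depend on the scale of a column, fell by 0.60 at P1d and by 0.52 at P7d against E18.5d, each with an exact two-sided permutation p of 0.1, the smallest that 3 against 3 hearts allow.

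*Hsp90b1*, the HSP90 of the ER, is described with the ER genes, and *Trap1*, the HSP90 of mitochondria, did not pass in any comparison on the deposited scale. *Trap1* stayed within 73.0 to 83.6 FPKM in all 9 hearts, with log2 changes of 0.06, 0.05 and -0.02. With the median of ratios its change at P7d against E18.5d was 0.23 (adjusted p = 0.00858). *Trap1* was called higher in that comparison under 3 of 5 scalings, and at P7d against P1d under 1.

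Among the cochaperones that hand clients to HSP90, *Stip1*, the HOP adaptor between HSP70 and HSP90, showed one of the largest decreases. It was at 106, 107 and 105 FPKM at E18.5d, 46.6, 41.9 and 55.9 FPKM at P1d and 57.9, 59.0 and 61.9 FPKM at P7d. No stages overlapped. The log2 change was -1.13 at P1d (SE 0.09, adjusted p = 1.75e-05) and -0.82 at P7d (adjusted p = 9.72e-05) against E18.5d, and 0.31 at P7d against P1d (adjusted p = 0.0206), which without 1 of the hearts had an adjusted p of up to 0.0676.

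The other members of the HSP70 and HSP90 cochaperone system that were listed, 25 genes, gave 1 called higher and 13 lower at P1d, and 1 higher and 10 lower at P7d, against E18.5d, with medians of -0.27 and -0.13. Over all genes 27.6% were lower at P1d and 36.9% at P7d, with medians of -0.06 and -0.17, so the P7d values of this list are near those of all genes. The largest decreases at P1d were those of *Ppid*, the cyclophilin that binds HSP90 (-0.99, adjusted p = 4.09e-05), and *Chordc1* (-0.92, adjusted p = 4.06e-05). At P7d they were those of the steroid receptor immunophilin *Fkbp5* (-1.25, adjusted p = 0.00839) and the p23 gene *Ptges3* (-0.89, adjusted p = 0.000102). *Bag5* was the gene called higher at P1d (0.18) and *Hspa12b* the one at P7d (0.28).

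In the HSP70 and HSP110 class, 10 of 11 genes were lower at P1d and 8 of 11 at P7d than at E18.5d, and 0 were called higher in either. Over all genes 27.6% were lower and 18.4% higher at P1d, and 36.9% lower and 12.5% higher at P7d. The P7d count was 6 to 8 over the 5 scalings, with *Hspa4* called under 2 of them and *Hspa13* under 1. *Hspa8*, the constitutive HSP70 of the cytosol (chromosome 9, 40800984 to 40810087, plus strand), was at 1120.5, 1139.8 and 1203 FPKM at E18.5d, 849, 873 and 838 FPKM at P1d and 728, 798 and 822 FPKM at P7d. Its hearts did not overlap between stages. Its log2 changes were -0.44 (SE 0.06, adjusted p = 0.000544) and -0.56 (SE 0.06, adjusted p = 0.000113) against E18.5d, and -0.13 at P7d against P1d, which did not pass.

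*Hsph1*, which encodes the HSP110 protein HSP105, a nucleotide exchange factor of HSP70, had the largest decrease of all 48 genes at P1d. It was at 13.2, 17.7 and 17.4 FPKM at E18.5d, 4.64, 4.14 and 5.22 FPKM at P1d and 5.38, 5.66 and 8.33 FPKM at P7d. The stages did not overlap. The run of 3 heat shock units printed above lies after the start site in each of its promoter windows. The log2 change was -1.59 at P1d (SE 0.16, adjusted p = 6.55e-05) and -1.21 at P7d (SE 0.16, adjusted p = 0.00028), with 0.38 at P7d against P1d not past the threshold (adjusted p = 0.0816). The 2 other HSP110 genes changed less, *Hspa4* by -0.49 and -0.29 and *Hspa4l* by -0.55 and -0.58 at P1d and P7d against E18.5d.

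The stress-inducible HSP70 genes *Hspa1a* and *Hspa1b* (chromosome 17, 34969190 to 34972156 and 34956436 to 34959238, both on the minus strand) were low in every heart. *Hspa1a* was at 1.92, 2.24 and 2.40 FPKM at E18.5d, 1.67, 2.23 and 1.33 FPKM at P1d and 1.64, 2.04 and 2.34 FPKM at P7d. *Hspa1b* was at 2.02, 2.06 and 2.74 FPKM, then 1.16, 1.27 and 1.80 FPKM, then 1.56, 2.09 and 2.26 FPKM. As near-identical copies they can share reads, so their split is uncertain and the sum is the safer value.

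The summed FPKM of the pair was 3.94 to 5.14 at E18.5d, 2.83 to 3.50 at P1d and 3.20 to 4.60 at P7d, or 0.333% to 0.560% of the level of *Hspa8* in any heart. P1d did not overlap with E18.5d (exact two-sided permutation p = 0.1, the smallest possible), while P7d overlapped with both. By limma only *Hspa1b* at P1d against E18.5d passed (-0.44, adjusted p = 0.0328, or up to 0.114 without 1 of the hearts), and it did so under 3 of 5 scalings.

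Of the remaining cytosolic genes of the class, *Hspa2* was lower at P1d (-0.43, adjusted p = 0.00534), and *Hspa14*, a partner of the ribosome-associated complex, was lower at P1d (-0.31) and P7d (-0.52). The row of *Gm45902* that overlaps *Hspa14* was at 1.27 to 2.52 FPKM over the 9 hearts, against 15.8 to 26.0 FPKM for *Hspa14*.

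The small heat shock proteins split after birth. *Hspb1*, *Hspb2* and *Hspb3* were lower and *Hspb6* and *Hspb8* higher at P7d than at either other stage, and *Hspb7* was not called in any comparison. *Hspb1*, which encodes HSP27 (chromosome 5, 135887919 to 135889563, plus strand), was at 321, 322 and 321 FPKM at E18.5d, 355, 236 and 300.2 FPKM at P1d and 153, 169 and 162 FPKM at P7d. The P7d hearts lay below all others, and the P1d hearts spread around the E18.5d ones. The log2 change was -0.99 at P7d against E18.5d (SE 0.12, adjusted p = 0.000177) and -0.86 against P1d (SE 0.12, adjusted p = 0.000535).

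*Hspb3*, which is expressed in muscle, was at 23.1, 23.9 and 25.2 FPKM at E18.5d, 12.7, 14.4 and 18.6 FPKM at P1d and 11.2, 9.53 and 11.3 FPKM at P7d. Its partner *Hspb2* was at 68.2, 66.8 and 62.6 FPKM, then 65.0, 70.7 and 76.0 FPKM, then 47.7, 52.8 and 44.4 FPKM. *Hspb3* had its decrease spread over both intervals (-0.64 at P1d and -1.10 at P7d against E18.5d). Its decrease from P1d to P7d (-0.46) passed under 3 of 5 scalings. Without 1 of the hearts that decrease had an adjusted p of up to 0.0537. *Hspb2* was called only at P7d (-0.44 from E18.5d and -0.54 from P1d). *Hspb2* overlaps *Cryab* on the opposite strand. The strand setting of the counting is not given in the sources used here, so reads of the pair may not be told apart where they overlap.

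*Hspb6*, which encodes HSP20, a phosphoprotein of heart and smooth muscle (chromosome 7, 30552178 to 30555443, plus strand), was at 45.0, 49.2 and 46.7 FPKM at E18.5d, 44.4, 40.1 and 52.9 FPKM at P1d and 78.3, 84.9 and 85.8 FPKM at P7d. *Hspb8*, whose protein forms a complex with BAG3, was at 32.1, 31.5 and 31.5 FPKM, then 26.5, 32.0 and 24.3 FPKM, then 47.5, 53.9 and 49.1 FPKM. In both genes the 3 P7d hearts lay above all others, and E18.5d and P1d overlapped. *Hspb6* was 1.77 times and *Hspb8* 1.58 times its E18.5d mean (log2 changes 0.81 and 0.64, SE 0.09 each, adjusted p = 0.000124 and 0.000463), and against P1d the changes were 0.85 and 0.84. *Hspb6* thus stood at a ratio of 0.125 to 0.176 to *Hspb1* in the 6 hearts of E18.5d and P1d and of 0.503 to 0.529 at P7d.

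*Hspb7*, the most abundant of the 6 small heat shock members at P7d, was at 195, 191 and 207 FPKM at E18.5d, 201, 187 and 252 FPKM at P1d and 211, 224 and 213 FPKM at P7d. Its change at P7d against E18.5d was 0.13 (adjusted p = 0.313) as deposited and 0.31 (adjusted p = 0.0414) with the median of ratios. Of the 4 other small heat shock genes listed, 2 passed the filter, and both had fallen by P7d from E18.5d. These were *Cryab*, the alpha B crystallin of heart muscle (-0.37, adjusted p = 0.000462), and *Hspb11* (-0.73, adjusted p = 0.000894), which is named for its family but is a component of intraflagellar transport.

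Markers of muscle moved over the same days. Of 7 cardiomyocyte markers, 4 had risen and 2 had fallen by P7d from E18.5d, with sums of 19804 to 20677 FPKM at E18.5d and 23074 to 24250 FPKM at P7d. Of 3 smooth muscle markers, 2 were lower, with sums of 689 to 851 FPKM and then 546 to 660.0 FPKM. Their part in the changes of the small heat shock proteins was not tested.

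*Bag3*, the cochaperone that links HSP70 and small heat shock proteins to autophagy and to the Z-disc, increased with *Hspb8*. It was at 21.1, 22.4 and 23.7 FPKM at E18.5d, 24.9, 25.5 and 24.7 FPKM at P1d and 27.8, 29.6 and 30.2 FPKM at P7d. The stages did not overlap, and the log2 change was 0.37 at P7d against E18.5d (SE 0.06, adjusted p = 0.000976) and 0.21 against P1d (adjusted p = 0.0189, or up to 0.0694 without 1 of the hearts), with 0.16 at P1d against E18.5d not past the threshold (adjusted p = 0.0621).

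The heat shock factors are the transcription factors of the heat shock element. *Hsf1* (chromosome 15, 76477422 to 76501913, plus strand) was at 10.4, 11.1 and 10.7 FPKM at E18.5d, 6.31, 5.73 and 5.25 FPKM at P1d and 8.20, 7.77 and 8.43 FPKM at P7d. *Hsf2* was at 8.96, 9.98 and 10.4 FPKM, then 9.55, 9.34 and 12.3 FPKM, then 7.65, 6.34 and 6.12 FPKM. *Hsf1* had its lowest 3 hearts at P1d and its highest 3 at E18.5d, while *Hsf2* had its lowest 3 at P7d and overlapped between the other stages.

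The log2 change of *Hsf1* was -0.80 at P1d and -0.36 at P7d against E18.5d (SE 0.08 each, adjusted p = 4.47e-05 and 0.00339) and 0.44 at P7d against P1d (adjusted p = 0.00155). That of *Hsf2* was -0.49 at P7d against E18.5d (SE 0.12, adjusted p = 0.00657) and -0.56 against P1d (adjusted p = 0.00391). Against E18.5d, the P7d decrease of each factor passed under 4 of 5 scalings, with ranges of -0.40 to -0.20 for *Hsf1* and -0.53 to -0.33 for *Hsf2*. Immediate early genes, which many stimuli induce within minutes, were also measured. Of 11 that passed the filter, 8 were higher at P1d and 7 at P7d than at E18.5d, against 18.4% and 12.5% of all genes. Sums over the 12 listed were 111 to 116 FPKM at E18.5d, 165 to 199 FPKM at P1d and 148 to 194 FPKM at P7d. The part of these genes in the results was not tested.

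The mitochondrial chaperonin is a barrel of HSP60, encoded by *Hspd1*, with a lid of HSP10, encoded by *Hspe1*. *Hspd1* (chromosome 1, 55077835 to 55088243, minus strand) was at 206, 204 and 216 FPKM at E18.5d, 136, 115 and 143 FPKM at P1d and 135, 139 and 140.0 FPKM at P7d. *Hspe1* (chromosome 1, 55088132 to 55091307, plus strand) was at 137, 135 and 144 FPKM, then 78.04, 90.7 and 83.3 FPKM, then 52.9, 57.9 and 56.4 FPKM. Both were lower in all postnatal hearts than before birth, and *Hspe1* alone went on to lower values at P7d than in any P1d heart.

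At P1d the 2 genes changed alike against E18.5d, by -0.67 for *Hspd1* and -0.72 for *Hspe1* (adjusted p = 0.000161 and 4.28e-05). At P7d the changes were -0.59 (SE 0.08, adjusted p = 0.000295) and -1.30 (SE 0.07, adjusted p = 1.08e-06), the latter the largest decrease of the 48 genes in that comparison. The ratio of *Hspe1* to *Hspd1* was 0.663 to 0.666 in the E18.5d hearts, 0.572 to 0.792 at P1d and 0.391 to 0.417 at P7d. P7d did not overlap with either other stage, and the ratio is free of the scale of the columns. The genes overlap by annotation at their shared start on opposite strands, where reads may not be told apart.

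Of the other mitochondrial members, *Hspa9*, the HSP70 of import and folding, was lower at P1d (-0.29) and P7d (-0.44) than at E18.5d, with means of 248, 202 and 183 FPKM. *Dnaja3*, its J-protein partner, was at 33.0, 33.5 and 31.4 FPKM at E18.5d, 28.7, 28.2 and 28.4 FPKM at P1d and 36.8, 36.0 and 34.6 FPKM at P7d. It was lowest in the 3 P1d hearts and highest in the 3 P7d hearts, with a log2 change of 0.32 at P7d against P1d (SE 0.05, adjusted p = 0.00108). Against E18.5d it was called higher at P7d under 3 of 5 scalings, though not on the deposited one. The 5 mitochondrial members, grouped with their values known, summed to 700 to 707 FPKM at E18.5d, 508 to 542 FPKM at P1d and 483 to 498 FPKM at P7d. The step from P1d to P7d depended on the scale. As a share of the FPKM of protein-coding nuclear genes, the sums of P1d and P7d overlapped, with the higher mean at P7d. On that scale too, all E18.5d hearts lay above the postnatal ones.

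Of 15 other mitochondrial chaperone and protease genes listed, 2 rose and 2 fell between E18.5d and P1d, and 1 rose and 7 fell between E18.5d and P7d. The medians were -0.02 and -0.17, against -0.06 and -0.17 over all genes, of which 27.6% fell and 18.4% rose by P1d and 36.9% fell by P7d, so the medians of this list are near those of all genes. The unfoldase *Clpx* was higher at both (0.58, adjusted p = 0.00041, and 0.26, adjusted p = 0.0243), and the protease *Htra2* was higher at P1d (0.20). The largest decreases were those of the import-motor J-protein *Dnajc15* (-0.38 and -0.48), *Grpel2*, an exchange factor of mitochondrial HSP70 (-0.32 at P1d), and the iron-sulfur cochaperone *Hscb* (-0.55 at P7d).

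The chaperones of the ER lumen were lower in nearly every case after birth. Of the 9 members that reside there, grouped with their values known, 8 were lower and 1 higher at P1d than at E18.5d, with a median log2 change of -0.77, and 8 were lower and 0 higher at P7d, with a median of -0.75 (6 to 8 lower over the 5 scalings). Over all genes 27.6% were lower and 18.4% higher at P1d (median -0.06), and 36.9% lower and 12.5% higher at P7d (median -0.17). *Hspa5*, which encodes BiP, the HSP70 of the ER and a regulator of the unfolded protein response (chromosome 2, 34771970 to 34777547, plus strand), was at 163, 168 and 185 FPKM at E18.5d, 96.7, 82.9 and 96.5 FPKM at P1d and 106, 99.8 and 95.2 FPKM at P7d. *Hsp90b1*, which encodes GRP94, was at 172, 185 and 207 FPKM, then 85.8, 74.8 and 86.5 FPKM, then 101, 98.3 and 108 FPKM. All postnatal hearts lay below all E18.5d hearts in both genes.

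The log2 change of *Hspa5* was -0.90 at P1d and -0.77 at P7d against E18.5d (SE 0.08 each, adjusted p = 2.89e-05 and 5.92e-05), and that of *Hsp90b1* was -1.18 and -0.87 (SE 0.08 each, adjusted p = 8.64e-06 and 4.41e-05). Between P1d and P7d, *Hsp90b1* was higher at P7d by 0.32 (adjusted p = 0.0133, or 0.0509 without 1 of the hearts), while *Hspa5* differed by 0.12 without passing (adjusted p = 0.223).

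The protein disulfide isomerases, which form and exchange the disulfide bonds of secreted proteins, changed to a like degree. *Pdia6* was at 109.6, 112 and 112 FPKM at E18.5d, 50.6, 46.4 and 54.1 FPKM at P1d and 59.2, 59.7 and 62.6 FPKM at P7d. *Pdia4* was at 58.9, 57.02 and 59.2 FPKM, then 28.1, 29.2 and 27.5 FPKM, then 32.3, 35.8 and 34.7 FPKM. In both the 3 stages did not overlap, with P1d the lowest and E18.5d the highest.

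The log2 changes at P1d against E18.5d were -1.13 for *Pdia6* and -1.02 for *Pdia4* (SE 0.06 each, adjusted p = 2.64e-06 and 2.7e-06), and both were higher at P7d than at P1d (0.26 and 0.27, adjusted p = 0.00798 and 0.00443). *Pdia3*, the partner of calnexin and calreticulin, was lower at P1d (-0.77) and P7d (-0.79) than at E18.5d and differed by -0.02 between P1d and P7d. The HSP70-like *Hspa13* and the J-proteins *Dnajb11* and *Dnajc3*, which work with BiP, had log2 changes of -0.32, -0.45 and -0.37 at P1d against E18.5d, all called lower.

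*Dnajb9*, a J-protein that helps remove misfolded proteins from the ER, went the other way. It was at 8.47, 9.24 and 9.09 FPKM at E18.5d, 11.98, 12.2 and 9.67 FPKM at P1d and 7.24, 8.81 and 8.91 FPKM at P7d. The P1d hearts lay above all others, with a log2 change of 0.30 against E18.5d (SE 0.10, adjusted p = 0.0382, or up to 0.114 without 1 of the hearts) and of -0.40 at P7d against P1d (adjusted p = 0.0124). With equal column sums the P1d change was 0.14 and did not pass.

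The wider set of 17 ER folding genes had the same divide, with 13 lower and 3 higher at P1d than at E18.5d and a median of -0.50, against 27.6% lower, 18.4% higher and a median of -0.06 over all genes. Of the genes that were lower, *Sdf2l1*, a component of the BiP chaperone complex, fell from a mean of 9.003 to 1.91 FPKM (-1.78, adjusted p = 2.30e-06), and *Manf*, which binds BiP, changed by -1.23 (adjusted p = 2.35e-05). At P7d these genes were at -1.23 and -1.09. Of the 17 genes, 13 were lower and none higher at P7d, against 36.9% lower and 12.5% higher over all genes. *Herpud1* and *Sel1l*, both of the pathway that exports misfolded proteins for degradation, were higher at P1d, by 1.06 (adjusted p = 0.000149) and 0.33 (adjusted p = 0.00133).

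The summed FPKM of the 9 ER members was 674 to 739 at E18.5d, 346 to 382 at P1d and 401 to 419 at P7d, and no stages overlapped. Markers of fibroblasts, the cells that secrete matrix, were also measured. Of 5 fibroblast markers, 3 were lower at P1d than at E18.5d and 2 were higher at P7d than at P1d, with sums of 990.4 to 1001 FPKM at E18.5d, 756 to 961 FPKM at P1d and 1061 to 1132 FPKM at P7d. Over all genes 27.6% were lower at P1d than at E18.5d and 15.5% higher at P7d than at P1d. The part of fibroblasts in the ER changes was not tested.

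TRiC, also called CCT, is the barrel that folds actin and tubulin. Its 7 members all had lower levels at P7d than before birth, with log2 changes from -0.77 (*Cct3*) to -0.45 (*Cct7*), and all lower at P7d than at P1d, from -0.56 (*Cct4*) to -0.31 (*Tcp1*). At P1d against E18.5d, 4 of 7 were called lower, with changes from -0.31 to -0.08 over the 7. Over all genes 27.6% were lower in that comparison, 36.9% at P7d against E18.5d and 28.6% at P7d against P1d. *Cct4* was at 76.4, 76.8 and 78.2 FPKM at E18.5d, 73.6, 69.8 and 69.9 FPKM at P1d and 50.4, 45.0 and 48.4 FPKM at P7d. Its 3 stages did not overlap, with a log2 change of -0.56 at P7d against P1d (SE 0.06, adjusted p = 8.99e-05) and -0.68 against E18.5d (adjusted p = 1.87e-05).

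The TRiC genes kept their direction at P7d under the 5 scalings tried. With the median of ratios, 7 of 7 were called lower at P7d than at E18.5d (median -0.44) and 6 of 7 lower than at P1d (median -0.30), and with equal column sums 7 and 2. The median gene changed by -0.02 and 0.00 with the median of ratios. The shares of all genes called under these scalings are not given here. Of the other genes of this system, *Cct6a*, a TRiC subunit outside the 48, had fallen by P7d from E18.5d (-0.54). The 14 partners tested were *Cct6a*, prefoldin, phosducin-like and tubulin cofactor genes. At P7d 9 were lower and none higher, with a median of -0.33, against 36.9% lower, 12.5% higher and -0.17 over all genes. At P1d 3 were lower and 2 higher, with a median of -0.14, against 27.6% lower, 18.4% higher and -0.06. The P1d counts thus did not stand above those of all genes. The tubulin cofactor *Tbca* had the largest decrease at P7d (-0.99, adjusted p = 6.46e-06) and the prefoldin subunit *Pfdn4* the largest at P1d (-0.64, adjusted p = 0.00252), followed by *Pdcl* (-0.32), while *Tbcd* and *Pfdn5* were higher at P1d (0.52 and 0.28).

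The ER and TRiC groups thus had different courses, which a ratio within each heart shows without regard to scale. The summed ER members stood at 0.798 to 0.930 of the summed TRiC members at E18.5d, at 0.507 to 0.532 at P1d and at 0.754 to 0.773 at P7d. The summed TRiC level was 795 to 845 FPKM at E18.5d, 682 to 726 FPKM at P1d and 520 to 546 FPKM at P7d, without overlap. The ratio was lowest in the 3 P1d hearts and did not overlap between any stages. It was not tested, as the groups were set with their values known.

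**Figure D3:**
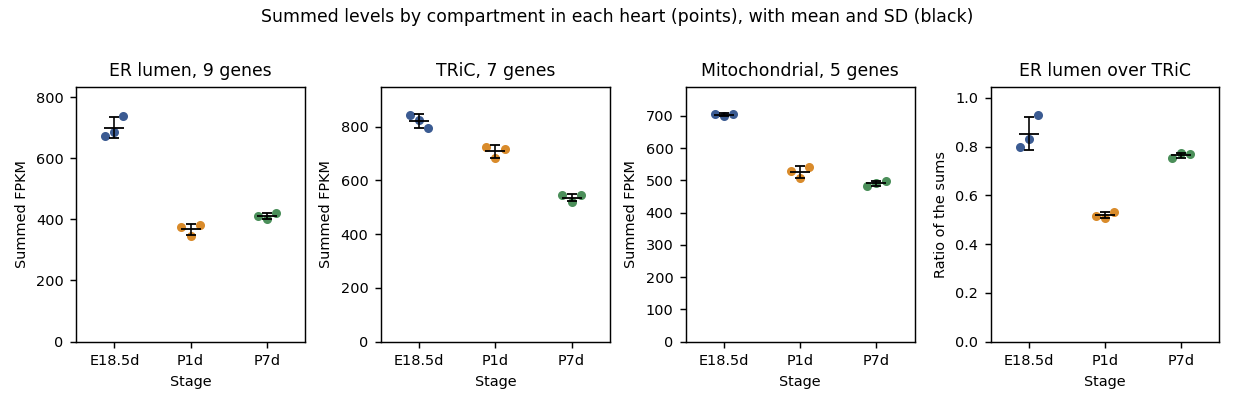
Summed FPKM of the ER lumen members, of TRiC and of the mitochondrial members, and the ratio of the ER sum to the TRiC sum, per heart (points) and stage, with the mean and SD of 3 hearts in black. The ER sum drops at P1d, the TRiC sum falls in both intervals, and the ratio is lowest at P1d (0.507 to 0.532).

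**Figure D4:**
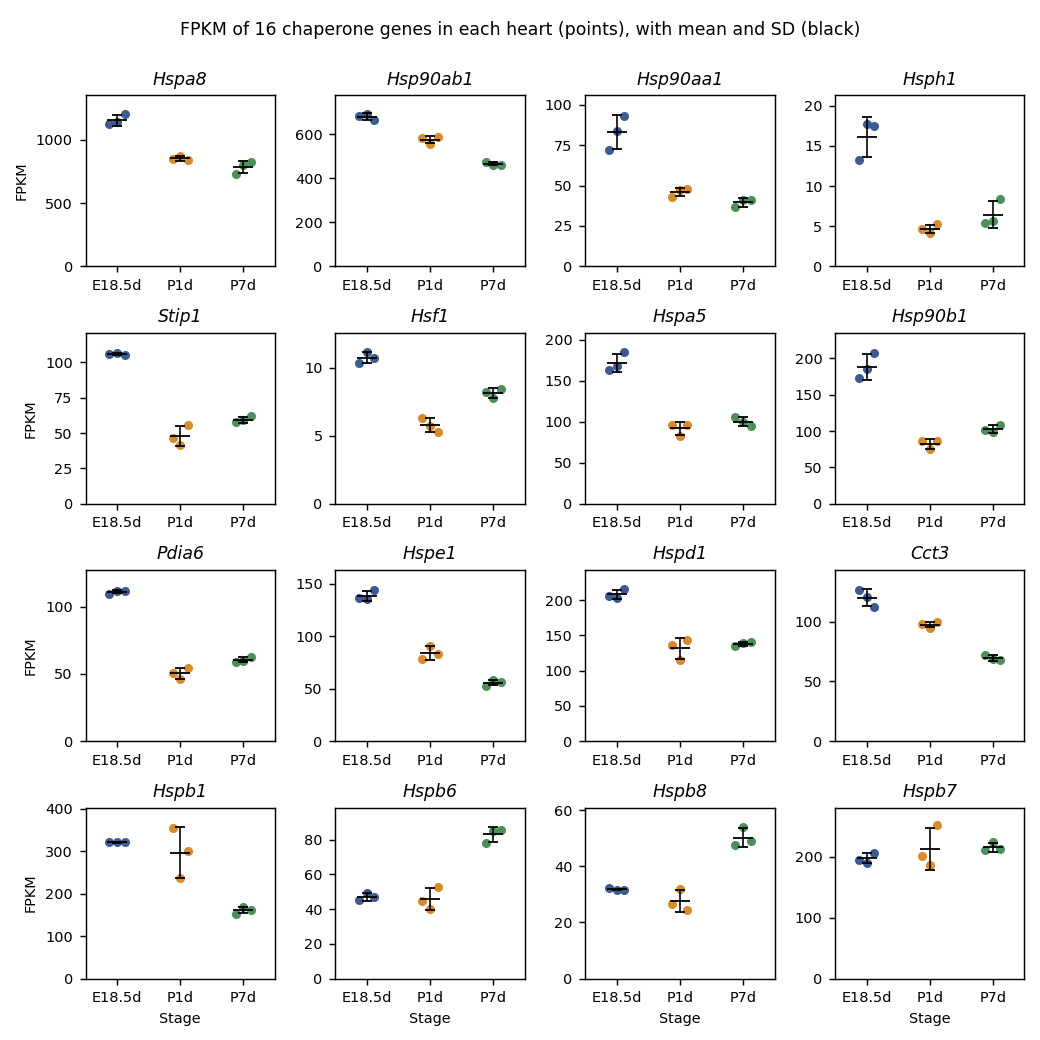
FPKM of 16 genes in each heart (points) by stage, with the mean and SD of 3 hearts in black and axes from 0. *Hspb6* and *Hspb8* are the genes of these whose P7d hearts all lie above the other 6. In *Hsf1*, *Hsp90b1*, *Hsph1*, *Pdia6* and *Stip1* the 3 P1d hearts lie below the other 6.

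The J-proteins outside the ER and mitochondria moved in several directions. *Dnajb6*, a J-protein that holds back polyglutamine aggregates, was at 36.0, 37.4 and 35.9 FPKM at E18.5d, 43.3, 43.2 and 41.9 FPKM at P1d and 34.0, 28.4 and 32.5 FPKM at P7d. *Dnaja4* was at 20.6, 18.5 and 22.4 FPKM, then 17.2, 15.02 and 19.1 FPKM, then 23.7, 21.4 and 24.4 FPKM. *Dnajb6* was highest in the 3 P1d hearts, and *Dnaja4* did not overlap between P1d and P7d but overlapped between E18.5d and either.

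The log2 change of *Dnajb6* was 0.23 at P1d against E18.5d (SE 0.07, adjusted p = 0.0234, or up to 0.0658 without 1 of the hearts), -0.20 at P7d against E18.5d (adjusted p = 0.0338) and -0.43 at P7d against P1d (adjusted p = 0.00104). With equal column sums the first was 0.055 (adjusted p = 0.726) and with a term for *Xist* 0.15 (adjusted p = 0.176), and neither passed. The second passed only on the deposited scale. *Dnaja4* was higher at P7d than at P1d by 0.42 (SE 0.10, adjusted p = 0.00779), a call that was lost with a term for *Xist* (adjusted p = 0.0577) and with no filter on low values (adjusted p = 0.0551). Against E18.5d *Dnaja4* was called higher at P7d under 3 of 5 scalings, though not on the deposited one. *Dnajb1*, the HSP40 partner of the inducible HSP70, was lower at P1d (-0.35) and P7d (-0.68) than at E18.5d, and so was *Dnaja1* (-0.58 and -0.85), which overlaps *Smu1* on the opposite strand. *Dnaja2* was called only at P7d against P1d (-0.17), on the deposited scale alone, and *Dnajb4* and *Dnajb5* were not called in any comparison.

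Of 13 other J-protein genes listed, 8 fell and 2 rose between E18.5d and P1d, and 8 fell and 0 rose between E18.5d and P7d. The medians were -0.29 and -0.35, against -0.06 and -0.17 over all genes. Of all genes, 27.6% fell and 18.4% rose by P1d, and 36.9% fell and 12.5% rose by P7d. *Dnajc9*, a histone chaperone of replicating cells, had the largest decrease at both (-1.32, adjusted p = 1.88e-05, and -0.74, adjusted p = 0.000474). *Dnajc27* at P1d (-0.49) and the ribosome-associated *Dnajc2* at P7d (-0.57) followed, and *Dnajb12* and *Dnajc5* were higher at P1d (0.37 and 0.31).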

How the data were processed

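RNA from 9 mouse heart samples, 3 at each of 3 stages, was sequenced, and the authors deposited FPKM values per gene for each sample. The submitters' processing notes name STAR, GRCm38 and mm10. The counting program, its strand setting and the scaling behind the FPKM values are not given in the sources used here. No read counts were used, so depth was estimated from the steps between low FPKM values, 86.1% to 91.5% of which were whole multiples of 1 fragment against 18.8% to 21.8% by chance.

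Stages were grouped by the labels and compared in 1 fit over all 9 hearts with limma 3.58.1 (R 4.3.3, eBayes with trend) on log2(FPKM + 1), a scale that understates changes of low genes. Genes with a mean under 1 FPKM were left out, and p-values were adjusted by Benjamini-Hochberg over the 13618 genes tested. Ratios and sums within a heart were compared by exact two-sided permutation tests over hearts (scipy 1.17.1). Gene positions are those of GENCODE M21 (GRCm38), which held 48144 of the 48820 identifiers. The procedure was tested on simulated data with 200 changed genes among 13618. Of the 200, 168 were recovered at P7d against E18.5d (9 false calls) and 171 at P7d against P1d (16 false calls). In the hearts themselves far more genes were called, with 5025 lower and 1706 higher at P7d against E18.5d. The planted changes were larger than those of most members. How far the recovery holds for the member calls was not tested.

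The members and all gene lists were chosen with earlier results of these data known. Values in every heart are given for the 5 members with the largest increase and the 5 with the largest decrease in each comparison, among those called whose hearts did not overlap, and for *Hsf1*, *Hspa1a*, *Hspa1b*, *Hspa8*, *Hsp90aa1*, *Hsp90ab1*, *Hspa5*, *Hspd1*, *Hspe1*, *Hspb7* and *Bag3*. Of each list of related genes, up to 2 increases and 2 decreases are named. The alternatives were another pseudocount, filter, scaling, variance model or set of hearts, a replicate block, a term for *Xist* and a minimum fold. The p-values set differences between stages against the spread between these samples, which may be single hearts or pools.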

Additional observations from a re-analysis of the deposited data

How the results depend on the processing

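None of the 98 member calls changed sign under any of 21 alternatives, and the 58 sign changes fell in 25 uncalled pairs of gene and comparison. The cause of the changes was not tested. The genes called higher at P1d against E18.5d numbered 0 with no filter on low values, 0 with equal column sums, 4 with the median of ratios, 0 with a term for *Xist* and 0 to 2 without each heart in turn. At P7d against E18.5d, 6 were higher with equal sums over protein-coding nuclear genes and 7 with the median of ratios or quantile normalization, and without each heart 3 were higher and 33 to 34 lower. At P7d against P1d, 6 were lower with equal column sums, 17 higher and 11 lower with equal protein-coding sums, and 5 higher with a term for *Xist*, and without each heart 8 to 13 were higher and 15 to 19 lower. In the 5 hearts without *Xist*, 0 were higher and 10 lower, 0 and 3, and 0 and 0 in the 3 comparisons. With a log2 change of at least 1 required, these were 0 and 5, 0 and 4, and 0 and 0. Same-numbered hearts did not deviate together (correlations -0.0546 to 0.112), so the numbers do not pair them, and a replicate block gave 2 higher and 31 lower, 4 and 33, and 13 and 21. The log2 ratio of *Hsp90aa1* to *Hsp90ab1* at P7d against P1d was -0.056 in hearts without *Xist*, against 0.084. The summed *Hspa1a* and *Hspa1b* FPKM at P7d minus E18.5d was 0.00204 with equal protein-coding sums, 0.0469 with the median of ratios and 0.207 with quantile normalization, against -0.483, and between -0.795 and -0.095 without each heart.

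Uncalled log2 changes that turned are given by setting. With equal column sums, they were -0.011 for *Bag3*, -0.056 for *Dnaja2*, -0.057 for *Dnajb4*, -0.086 for *Hsf2*, -0.076 for *Hspb2*, -0.075 for *Hspb7* and -0.11 for *Trap1* at P1d against E18.5d, then 0.091 for *Hspa4l*, 0.0039 for *Hspa8*, 0.10 for *Pdia3* and 0.11 for *Trap1* at P7d against P1d. With equal protein-coding sums, they were 0.11 for *Dnaja2*, 0.055 for *Dnajb9* and 0.026 for *Hspa1a* at P7d against E18.5d, then 0.11 for *Hspa4l*, 0.027 for *Hspa8*, 0.00902 for *Hspa9*, 0.13 for *Pdia3* and 0.14 for *Trap1* at P7d against P1d. With the median of ratios, they were 0.026 for *Hspb6* at P1d against E18.5d, then 0.13 for *Dnaja2*, 0.067 for *Dnajb9* and 0.035 for *Hspa1a* at P7d against E18.5d, then 0.073 for *Hspa4l*, 0.086 for *Pdia3* and 0.094 for *Trap1* at P7d against P1d. With quantile normalization, they were 0.016 for *Cct7* at P1d against E18.5d, then 0.081 for *Dnaja2*, 0.0601 for *Dnajb9*, 0.074 for *Hspa1a* and 0.017 for *Hspa1b* at P7d against E18.5d, then 0.065 for *Hspa4l*, 0.20 for *Hspa8*, 0.097 for *Pdia3* and 0.069 for *Trap1* at P7d against P1d. With a term for *Xist*, they were -0.029 for *Hsf2* at P1d against E18.5d, then -0.014 for *Hspb7* at P7d against P1d. In the hearts without *Xist*, they were -0.20 for *Dnajb5* at P7d against E18.5d, then -0.036 for *Dnajb5*, -0.042 for *Hspa1a* and -0.0062 for *Hspb7* at P7d against P1d. Without each heart in turn, they reached from -0.044 to 0.22 for *Dnajb4*, -0.043 to 0.14 for *Hsf2*, -0.27 to 0.022 for *Hspb1*, -0.15 to 0.046 for *Hspb6* and -0.027 to 0.19 for *Hspb7* at P1d against E18.5d, then from -0.045 to 0.24 for *Dnajb5* and -0.17 to 0.0028 for *Hspa1a* at P7d against E18.5d, then from -0.036 to 0.079 for *Dnajc3*, -0.087 to 0.063 for *Hspa4l*, -0.0602 to 0.15 for *Hspb7*, -0.0203 to 0.14 for *Hspd1*, -0.068 to 0.022 for *Pdia3* and -0.037 to 0.0195 for *Trap1* at P7d against P1d.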
